A study of Bos taurus with 6 samples.

Results

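The DNAJ genes encode J-domain proteins, the co-chaperones that bring HSP70 chaperones their substrates and start their ATP hydrolysis. The genes described here are the 35 of the 9537 genes in the deposited table whose symbol starts with DNAJA, DNAJB or DNAJC followed by a number. They comprise 4 genes of subfamily A, 10 of subfamily B and 21 of subfamily C. All 35 symbols are in the RefSeq gene table of the cattle assembly ARS-UCD2.0. That table holds 10 further protein-coding genes of these names, DNAJB7, DNAJB8, DNAJB13, DNAJC1, DNAJC4, DNAJC5B, DNAJC5G, DNAJC8, DNAJC12 and DNAJC28, which were not analysed here.

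Total RNA of bovine (Bos taurus) blastocysts was sequenced, in 3 libraries of embryos with high and 3 libraries of embryos with low survival after vitrification, the glass-forming type of cryopreservation. Every embryo was produced in vitro and grown in SOFaaci, a standard culture medium. Genotype, embryo age and the time of lysis relative to vitrification are not stated, and no agent is named. The titles carry the code V for each high and NV for each low cryosurvival library; the codes are unexplained, so anything else they mark cannot be told apart from cryosurvival. Nor do the labels say that the 3 libraries of a group are separate cultures or embryo pools, so p-values measure only the spread between these libraries, which may be technical.

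J-domain proteins share a helical J domain with a conserved histidine, proline and aspartate loop that contacts HSP70. Subfamily A members also carry a glycine and phenylalanine rich stretch and a zinc finger region, subfamily B members the glycine and phenylalanine rich stretch without the zinc finger, and subfamily C members only the J domain. The partner HSP70 depends on the place of action: HSPA8 and HSPA1A in the cytosol and nucleus, HSPA5 in the endoplasmic reticulum and HSPA9 in the mitochondrion. Nucleotide exchange factors such as BAG3, HYOU1 or GRPEL1 then release ADP from the HSP70 and reset the cycle. Protein or promoter sequences were not analysed here.

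Levels are given in CPM, the reads of a gene relative to a scaled library size. CPM is not divided by transcript length, so levels are not compared between genes. The libraries held 14651477 to 19467022 reads in the table, and 1 read equalled 0.0499 to 0.0751 CPM. The members were covered by 32 reads at the lowest (DNAJB4 and DNAJC6 in low library 2) to 7251 reads (DNAJA1). Low library 2 stood apart from the rest. It was the highest or the lowest of the 6 libraries for 28 of the 35 members (80%), and for 69.9% of all genes in the table, against 11.4% to 42.9% of the members in each other library. Differences below are means of log2(CPM + 1) in low minus high cryosurvival, tested with limma over all 9537 genes with Benjamini-Hochberg adjustment. Of the blastocyst markers, 9 of 10 trophectoderm, 6 of 8 epiblast and 6 of 8 hypoblast genes were in the table, and KRT8, a trophectoderm keratin, was at 15394 to 21785 CPM. Of the markers of cumulus and granulosa cells, which surround the oocyte, 5 of 10 were in the table, and of the 5 sperm markers only TNP1, at no more than 3.08 CPM. The summed cumulus and granulosa markers were at 380 to 524 CPM in low and 402 to 526 CPM in high libraries, which overlap. Most of that sum was HSD3B1, with means of 267 CPM in low and 307 CPM in high libraries, and CYP11A1, with 179 and 132 CPM. CYP19A1 averaged 15.0 and 13.5 CPM, FSHR 7.51 and 8.81 CPM and INHBA 2.55 and 3.01 CPM. Whether cumulus or granulosa cells gave these reads was not tested. All 9 trophectoderm markers had a lower mean log2 value in low cryosurvival, with a median difference of -0.25. Over all genes, 50% had a higher mean log2 value there, and the median difference was 0.0002. For PAG2 and KRT8 the difference was near 0, at -0.0007 and -0.016, and reached 0.12 and 0.097 with a library left out. For GATA2, TFAP2A and DAB2, 33.3% of the 9, the 3 low libraries lay below the 3 high ones. Over all genes, 10.6% lay below in this way and 10.4% above. The summed level of the 9 markers overlapped, at 26935 to 37030 CPM in low and 31572 to 34890 CPM in high libraries. The 6 hypoblast markers had a median difference of 0.33 and summed to 1755 to 3067 CPM in low and 2316 to 2994 CPM in high libraries. The epiblast markers had a median of 0.01 and summed to 808 to 1129 CPM in low and 893 to 1025 CPM in high libraries. Of these 6 markers, 4 had a higher mean log2 value in low cryosurvival. They were LIN28A, SOX2, TDGF1 and POU5F1, at 0.38, 0.26, 0.03 and 0.004. DPPA3 was at -0.46, with overlapping groups. Only NANOG, the epiblast transcription factor, was lower in every low library. The log2 difference of NANOG was -1.23 (limma adjusted p = 0.164), larger in size than that of any DNAJ member. By the authors' deposited table the adjusted p of NANOG was 0.002. Of the 6 hypoblast markers, 4 had a higher mean log2 value in low cryosurvival. Among them only GATA4 was higher in every low library, with a log2 difference of 0.47, while PDGFRA and FN1 were at -0.25 and -0.13. Of the 5 cumulus and granulosa markers, 3 had a lower mean log2 value in low cryosurvival. Among these only FSHR was lower in every low library, with -0.21, while CYP11A1 and CYP19A1 were at 0.37 and 0.12. The part of cell makeup in the differences below was not tested, and in such bulk RNA fewer cells of a type and less RNA per cell cannot be told apart.

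No DNAJ member passed limma at an adjusted p of 0.05, where 0% of all genes passed. The endoplasmic reticulum members DNAJC10, DNAJB9, DNAJC3, DNAJB11, DNAJC18 and DNAJB14 were higher in each of the 3 low cryosurvival libraries than in any high library. The ratios of their means were 1.25 to 1.49. The same held for 4 members outside the endoplasmic reticulum list, the heat-inducible cytosolic DNAJB1, DNAJA1, DNAJC21 and DNAJC5, with ratios of 1.19 to 1.37. The groups overlapped for the other 3 measured members of the endoplasmic reticulum list, DNAJB12, DNAJC16 and DNAJC25. At an unadjusted limma p below 0.05, 7 members were higher in low cryosurvival (20% of the members, against 6.27% of all genes) and 0 were lower (against 5.70% of all genes). The 7 were DNAJC10, DNAJB9, DNAJC3, DNAJB1, DNAJC21, DNAJC18 and DNAJB11. In 10 members the 3 low libraries lay above the 3 high ones, against 10.4% of all genes, and in 0 members below them, against 10.6% of all genes. The mean log2 value was higher in low cryosurvival for 26 of the 35 members (74.3%), against 50% of all genes. With voom on the reads recovered from the CPM values, 0 members and 0% of all genes passed at an adjusted p of 0.05, and 7 members (20%) had an unadjusted p below 0.05 in either direction, against 10.8% of all genes. By the adjusted p of the authors' deposited table, 1.2% of all genes and 0 members were below 0.05. The lowest value of a member in the authors' deposited table was 0.132, for DNAJC10. With 3 libraries against 3, an exact permutation test of a single gene cannot give a p below 0.1, and none was made.

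Low library 2 decided the count of adjusted calls. Without it, limma called 7 members at an adjusted p of 0.05, which is 20% of the members against 13.6% of all genes. These were DNAJC10, DNAJB9, DNAJB1, DNAJC3, DNAJB5 and DNAJC13, higher in low cryosurvival, and DNAJC19, lower. The unadjusted count, here in either direction, also moved with single libraries, as it did over all genes. Without low library 2 it was 14 members (40%), near the 35.1% of all genes. It was 4 members (11.4%) without high library 1, against 6.68% of all genes, and 4 without high library 2, against 7.54%.

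**Figure D1:**
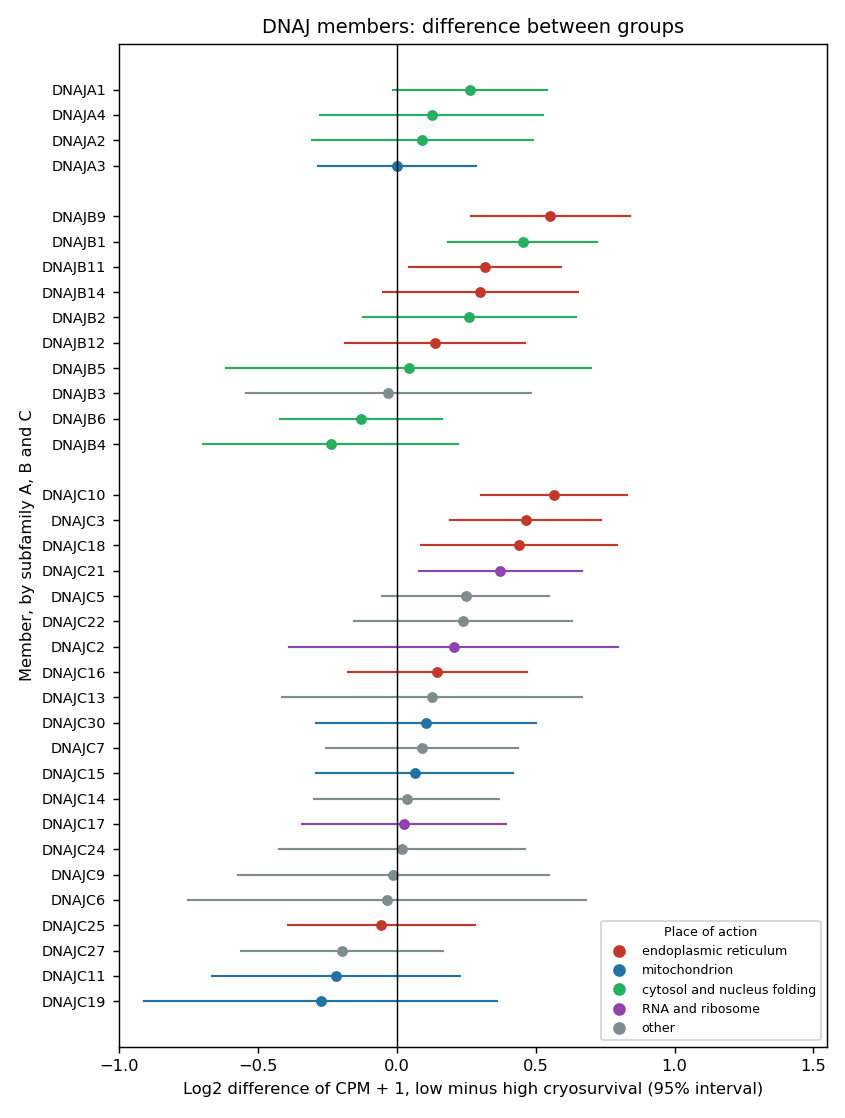
Log2 difference of CPM + 1, low minus high cryosurvival, for the 35 members by subfamily (points) with the 95% interval from limma (lines), coloured by place of action. The intervals of 7 members lie wholly above 0 and those of 0 members wholly below it.

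Among the members that act in the lumen of the endoplasmic reticulum, DNAJC10, a disulfide reductase also known as ERdj5, was at 148, 153 and 156 CPM in low libraries 1, 2 and 3 and at 104, 106 and 97.8 CPM in high libraries 1, 2 and 3. The groups were far apart relative to their spread, and low library 2 lay between the other low libraries. The log2 difference was 0.57 ± 0.11 (SE; limma adjusted p = 0.164), the smallest adjusted p among the members. DNAJB9, also known as ERdj4, an HSPA5 partner that restrains the stress sensor IRE1, was at 68.9, 81.2 and 73.0 CPM in low and 51.8, 48.8 and 50.1 CPM in high libraries. Its low libraries were all above the high ones, with low library 2 the highest. DNAJB9 had a log2 difference of 0.55 ± 0.12 (SE; limma adjusted p = 0.176), and 0.49 without low library 2. DNAJC3, known as p58IPK, a substrate binding co-chaperone of HSPA5, was at 177, 191 and 187 CPM in low and 126, 137 and 139 CPM in high libraries. These groups did not overlap either, and the ratio of the means was 1.38. Limma gave 0.46 ± 0.11 on the log2 scale (SE; adjusted p = 0.202). DNAJB11, or ERdj3, which binds nascent secretory proteins, was at 236, 246 and 251 CPM in low and 185, 194 and 209 CPM in high libraries. The gap between the groups was narrower, with a ratio of 1.25 and a log2 difference of 0.32 ± 0.11 (SE; limma adjusted p = 0.344).

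Other members sit in the endoplasmic reticulum membrane with the J domain in the cytosol, the place of HSPA8 and HSPA1A and not HSPA5. Among them DNAJC18 was at 9.69, 13.6 and 10.9 CPM in low and 8.01, 7.76 and 8.43 CPM in high libraries. Low library 2 was the highest, and the log2 difference of 0.44 ± 0.15 (SE; limma adjusted p = 0.315) became 0.32 without it. DNAJB14, which acts in the degradation of misfolded membrane proteins, was at 15.4, 19.2 and 15.7 CPM in low and 11.6, 14.3 and 14.4 CPM in high libraries. The groups again did not overlap, and the 95% interval of its log2 difference ran from -0.05 to 0.65. For its close relative DNAJB12 the groups overlapped, with means of 29.4 ± 3.03 CPM for low against 26.6 ± 2.37 CPM for high cryosurvival (SD, n = 3 each). DNAJC16, also on the list of the endoplasmic reticulum, was at 29.7 ± 3.84 against 26.6 ± 0.651 CPM and DNAJC25 at 59.7 ± 9.17 against 61.6 ± 1.26 CPM. Low library 2 was the lowest of 6 for DNAJC16 and the highest of 6 for DNAJC25. Of the 9 measured members on the endoplasmic reticulum list, 8 had a higher mean log2 value in low cryosurvival (88.9%, against 50% of all genes). In 6 of the 9 the 3 low libraries lay above the 3 high ones (66.7%, against 10.4% of all genes). Their median log2 difference was 0.32, beside 0.05 for the 26 members outside the list and 0.0002 for all genes.

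**Figure D2:**
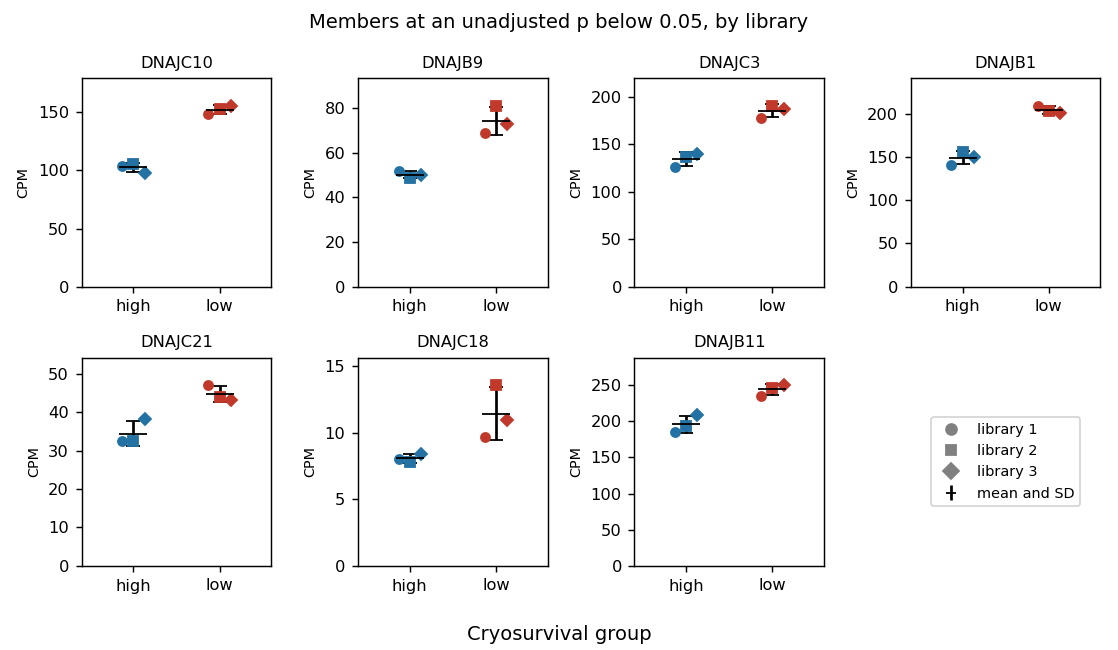
CPM in each library (vertical axes from 0) of the 7 members at an unadjusted limma p below 0.05, by cryosurvival group (horizontal axis), with the mean and SD of 3 libraries. In each panel the 3 low libraries lie above the 3 high libraries, and those of DNAJC18 lie at 9.69 to 13.6 CPM, with low library 2 the highest.

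The cytosolic and nuclear members that fold proteins with HSPA8 and HSPA1A differed among themselves. DNAJB1, the classical HSP40 and a target of the heat shock factor HSF1, was at 210, 203 and 201 CPM in low and 141, 156 and 151 CPM in high libraries. The low libraries lay close together and above every high library. DNAJB1 had a log2 difference of 0.45 ± 0.11 (SE; limma adjusted p = 0.204), and leaving out each library in turn gave 0.41 to 0.49. DNAJA1, a farnesylated general co-chaperone of cytosolic HSP70, was at 362, 377 and 372 CPM in low and 327, 315 and 284 CPM in high libraries. Its groups did not overlap, and the log2 difference was 0.26 with a 95% interval from -0.01 to 0.54. DNAJA2, a related general co-chaperone, was at 169, 122 and 176 CPM in low and 149, 146 and 138 CPM in high libraries. Here low library 2 was the lowest of the 6 while the other low libraries were above every high library. DNAJB6, which holds back aggregation of polyglutamine and amyloid proteins, was at 200, 228 and 203 CPM in low and 223, 220 and 248 CPM in high libraries, with overlapping groups. DNAJA4 averaged 43.6 ± 9.54 CPM for low against 39.4 ± 0.840 CPM for high cryosurvival (SD, n = 3 each). Low library 1 was the highest of the 6 for DNAJA4, at 54.5 CPM against 36.7 and 39.7 CPM in the other low libraries. DNAJB2, a co-chaperone with ubiquitin interacting motifs, was at 40.4 ± 7.56 against 33.2 ± 2.16 CPM, with low library 2 the highest at 48.8 CPM. DNAJB4 was at 3.31 ± 1.07 against 3.99 ± 0.356 CPM, on 32 to 90 reads per library. DNAJB5 was at 17.3, 8.11 and 17.0 CPM in low and 12.7, 13.6 and 12.7 CPM in high libraries. Low library 2 was the lowest there and the other low libraries the highest, and the log2 difference of 0.04 became 0.37 without it (limma adjusted p = 0.983 and 0.0388). Over the 8 members of this list the median log2 difference was 0.11. Of these, 6 had a higher mean log2 value in low libraries (75%, against 50% of all genes).

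Members that work on ribosomes and RNA were likewise uneven. DNAJC21, which takes part in maturation of the large ribosomal subunit, was at 47.1, 43.9 and 43.2 CPM in low and 32.5, 32.6 and 38.1 CPM in high libraries. All 3 low libraries were higher than the highest high library, and the log2 difference was 0.37 ± 0.12 (SE; limma adjusted p = 0.311). DNAJC2, the ribosome-bound co-chaperone also called MPP11, was at 73.5, 130 and 73.9 CPM in low and 81.0, 65.4 and 86.3 CPM in high libraries. Its higher mean in low cryosurvival came from low library 2, and the log2 difference of 0.21 was -0.06 without that library. HSPA14, the HSP70-like partner of DNAJC2 on the ribosome, had a log2 difference of 0.05 with overlapping groups. DNAJC17, a nuclear member linked to splicing, averaged 23.5 ± 4.20 CPM for low against 22.9 ± 0.893 CPM for high cryosurvival (SD, n = 3 each).

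The groups overlapped for all 5 measured mitochondrial members. Over all genes, the 3 low libraries lay above the 3 high ones for 10.4% and below them for 10.6%. With 5 members, a count of 0 cannot be told apart from these shares. DNAJC11, an outer membrane protein tied to cristae organisation, was at 266, 179 and 265 CPM in low and 266, 298 and 252 CPM in high libraries. The log2 difference of DNAJC11 was -0.22, and -0.03 without low library 2. DNAJC19, a subunit of the motor that pulls proteins through the inner membrane, was at 38.6, 73.2 and 39.2 CPM in low and 55.6, 52.1 and 68.3 CPM in high libraries. Low library 2 was the highest of all and the other low libraries the lowest, so that the log2 difference of -0.27 became -0.57 without it (limma adjusted p = 0.805 and 0.0383). DNAJC15, which is related to DNAJC19, averaged 21.3 ± 3.64 CPM for low against 20.1 ± 1.09 CPM for high cryosurvival (SD, n = 3 each), with low library 2 again the highest, at 25.5 CPM. DNAJA3, the mitochondrial member of subfamily A, was at 132, 116 and 133 CPM in low and 130, 131 and 121 CPM in high libraries. Its 95% interval ran from -0.28 to 0.28 on the log2 scale, the narrowest of the 5 mitochondrial members. DNAJC30, which supports the respiratory chain, was at 18.1 ± 1.98 against 16.9 ± 2.95 CPM. The median log2 difference of these 5 members was 0.0003.

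The remaining 10 members act on vesicles, histones and other specific targets or have no place on these lists. DNAJC5, the cysteine string protein of exocytosis, was at 284, 306 and 284 CPM in low and 246, 270 and 222 CPM in high libraries. It was the only one of the 10 whose groups did not overlap. That is 10%, near the 10.4% of all genes whose 3 low libraries lay above the 3 high ones. The 95% interval of the log2 difference of DNAJC5 ran from -0.05 to 0.55. DNAJC13, an endosomal protein also called RME-8, was at 160, 88.8 and 145 CPM in low and 116, 115 and 120 CPM in high libraries. As with DNAJB5, low library 2 was the lowest and the other low libraries the highest, and the log2 difference of 0.13 became 0.38 without it (limma adjusted p = 0.916 and 0.0404). DNAJC6, or auxilin, which uncoats clathrin vesicles, showed the same order, with 6.54, 2.40 and 5.71 CPM in low and 4.31, 4.46 and 5.38 CPM in high libraries. DNAJC9, a histone co-chaperone, averaged 19.5 ± 5.04 CPM for low against 19.6 ± 4.25 CPM for high cryosurvival (SD, n = 3 each). DNAJC7, which binds both HSP70 and HSP90, was at 116 ± 17.8 against 108 ± 3.36 CPM, and DNAJC14 at 94.7 ± 13.1 against 91.8 ± 1.70 CPM. DNAJC22 was at 14.1 ± 2.54 against 11.8 ± 1.44 CPM and DNAJC24, a factor of diphthamide synthesis, at 11.8 ± 2.77 against 11.5 ± 1.54 CPM. DNAJC27, a small GTPase with a J domain, was at 3.87 ± 0.593 against 4.58 ± 0.647 CPM. DNAJB3 was at 2.73 ± 1.09 against 2.72 ± 0.364 CPM, on 40 to 54 reads per library.

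**Figure D3:**
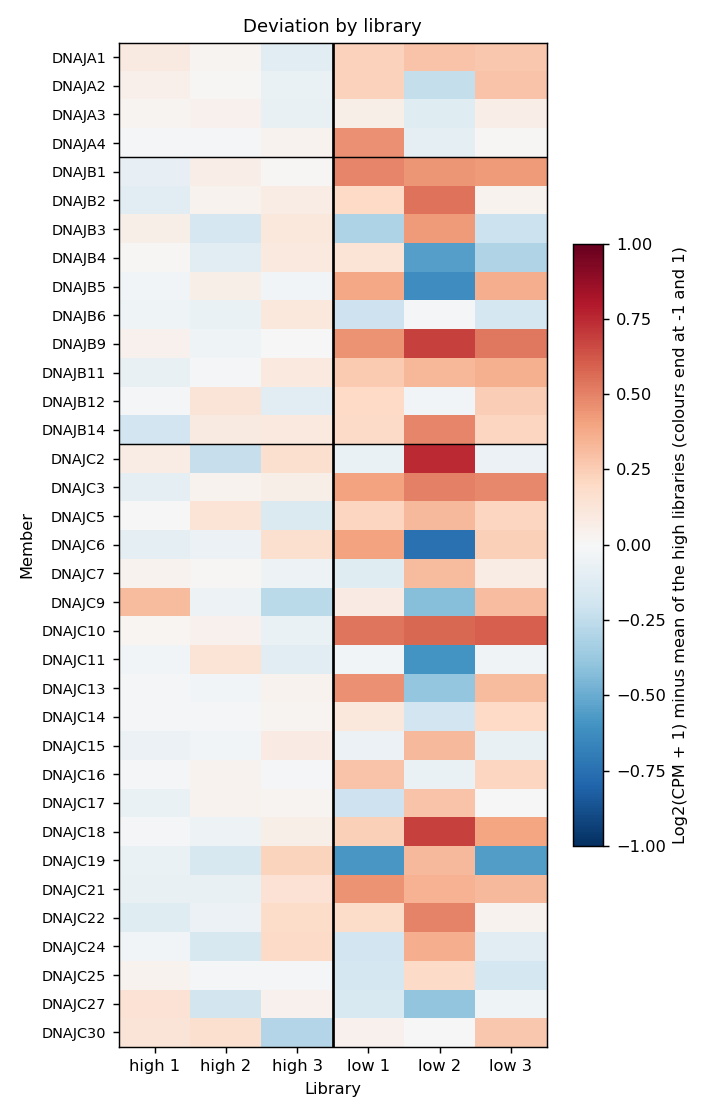
Log2(CPM + 1) of each member (rows, by subfamily) in each library (columns) minus the mean of the 3 high libraries, red for above and blue for below. DNAJB1, DNAJB9, DNAJC3 and DNAJC10 are red in all 3 low libraries, while DNAJB5, DNAJC6 and DNAJC13 are blue in low library 2 and red in the other low libraries, and DNAJC19 the reverse.

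The 3 subfamilies were then set side by side, as a description without a test, since genes are not replicates. In subfamily A the median of the log2 differences was 0.11, and 4 of 4 members were above 0, the lowest being DNAJA3 at 0.0003, which turned negative with CPM of the plain table total. For subfamily B it was 0.20, with 7 of 10 members above 0, and for subfamily C 0.09, with 15 of 21. Over all genes 50% were above 0. Within subfamily B the 4 members of the endoplasmic reticulum list had a median of 0.31 and the other 6 a median of 0.01. Subfamily C showed the same division, with a median of 0.44 for its 5 members of the endoplasmic reticulum list and 0.05 for the other 16. The subfamily medians without low library 2 were 0.24, 0.21 and 0.15 for A, B and C. In that library itself the median deviation from the high mean was -0.11 for A, 0.38 for B and 0.32 for C, against 0.23, 0.20 and 0.08 in low library 1 and 0.17, 0.23 and 0.20 in low library 3. From highest to lowest the order was thus B, C and A in low libraries 2 and 3, and A, B and C in low library 1.

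Summed over the 35 members, the level was 3140, 3129 and 3180 CPM in low libraries 1, 2 and 3 and 2775, 2827 and 2761 CPM in high libraries 1, 2 and 3. The low sums lay above the high sums on this scale. It depends on the library scaling, because the scaled library size of low library 2 was smaller than its table total. As a share of all reads in the table the members took 0.323%, 0.284% and 0.331% in the low and 0.282%, 0.284% and 0.280% in the high libraries. On that scale low library 2 differed from the highest high library by less than the spread among the high libraries. The 9 members of the endoplasmic reticulum list were separated on both scales. Their sums were 773, 825 and 810 CPM in the low libraries against 602, 625 and 630 CPM in the high ones, and their shares were 0.0795%, 0.0750% and 0.0843% against 0.0611%, 0.0628% and 0.0638%.

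The partners of these co-chaperones were read from lists of HSP70 proteins, nucleotide exchange factors and J-domain proteins of other names. Of 7 measured HSP70 genes, 2 had an unadjusted limma p below 0.05 and were higher in low cryosurvival, HSPA5 and HSPA1A (against 6.27% of all genes). Another 1, HSPA2, was lower (against 5.70% of all genes). The ratio of the means was 1.70 for HSPA5, 1.89 for HSPA1A, which has a near-identical copy, and 0.704 for HSPA2. The constitutive HSPA8 had a ratio of 1.08 with overlapping groups, and HSPA9 of the mitochondrion 0.884. Of 13 nucleotide exchange factors, 2 had an unadjusted limma p below 0.05, both higher in low cryosurvival (15.4%, against 6.27% of all genes). HYOU1, which serves HSPA5, was at 797, 489 and 781 CPM in low and 399, 423 and 361 CPM in high libraries, and BAG3 had a ratio of 1.77. HYOU1 in low library 2 was nearer to the high libraries than in the other low libraries. SIL1, the other exchange factor of HSPA5, was at 18.4, 21.1 and 17.4 CPM in low and 18.5, 18.9 and 19.5 CPM in high libraries, which overlap. In the authors' deposited table HSPA5, HSPA1A, HYOU1 and BAG3 had adjusted p-values of 0.015, 0.003, 0.044 and 0.02. HSPH1, an exchange factor of cytosolic HSP70, had groups that did not overlap, with a ratio of 1.29, and BAG6 had a log2 difference of -0.12. Neither HSP70 genes nor exchange factors held a member that passed limma at an adjusted p of 0.05. Of the J-domain proteins without a DNAJ symbol, 3 of 4 were measured and none had an unadjusted p below 0.05. SEC63, which works beside the translocation channel of the endoplasmic reticulum, was at 231, 172 and 218 CPM in low and 173, 177 and 148 CPM in high libraries. Low library 2 fell among the high libraries, and the log2 difference of 0.31 was 0.44 without it (limma adjusted p = 0.521 and 0.0465). GAK, the relative of auxilin, had a ratio of 1.03, and HSCB, of iron and sulfur cluster assembly, a log2 difference of -0.01. Without low library 2, SEC63 was 1 of 8 genes below an adjusted limma p of 0.05 among the 23 measured on these 3 lists, beside 13.6% of all genes. The others were HSPA5, HSPA1A, HYOU1, BAG3 and HSPA13, higher in low cryosurvival, and HSPA2 and BAG2, lower. The log2 difference of HSPA13, an HSP70 of the endoplasmic reticulum, was 0.23 with and 0.63 without that library, and that of BAG2 was -0.22 and -0.36.

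**Figure D4:**
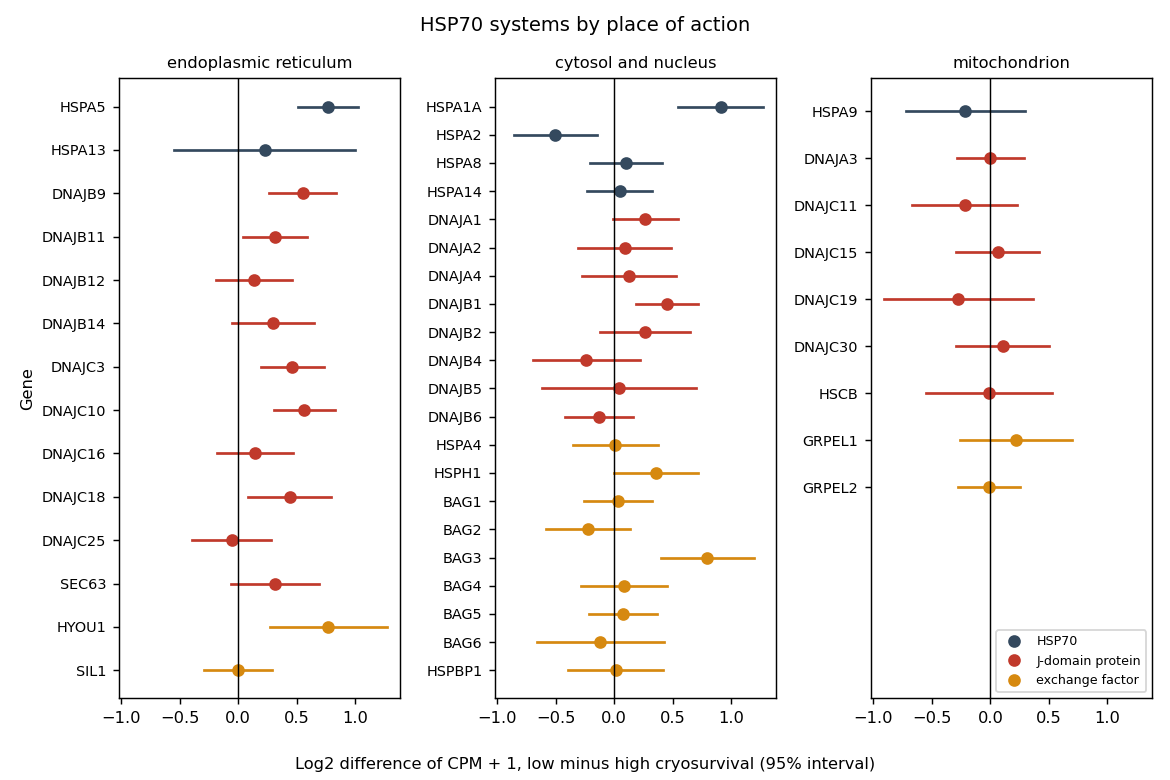
Log2 difference of CPM + 1, low minus high cryosurvival, with 95% limma intervals, for measured HSP70 proteins, J-domain proteins and exchange factors by place of action. The endoplasmic reticulum panel is drawn by organelle, not by HSP70 partner. It includes DNAJB12, DNAJB14 and DNAJC18, whose J domains face the cytosol. In the endoplasmic reticulum panel the intervals of HSPA5, DNAJB9, DNAJB11, DNAJC3, DNAJC10, DNAJC18 and HYOU1 lie above 0, and in the cytosol and nucleus panel those of HSPA1A, DNAJB1 and BAG3 lie above and that of HSPA2 below 0. All 9 intervals of the mitochondrion panel include 0.

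Some members share their locus with other genes in the RefSeq annotation of ARS-UCD2.0, and the strand setting of the counting is not stated. DNAJB3 overlaps UGT1A6, DNAJC24 overlaps IMMP1L and DNAJC9 overlaps FAM149B1, all 3 of them also in the table. Only the spans of the genes were compared, not their exons or strands, so whether reads of these pairs were mixed was not tested. Among the members at an unadjusted p below 0.05, DNAJB1, DNAJB11, DNAJC10 and DNAJC21 each overlap an annotated gene that was not analysed here.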

How the data were processed

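The authors' deposited table gave a value per gene for each of the 6 libraries, beside a log2 fold and p-values before and after adjustment, with decimal commas. Library values were identified from the values as CPM: up to 1000 CPM they were whole multiples, within 0.05 read, of 1 step per library for 100% of values. The reads recovered gave TMM (trimmed mean of M values) factors equal to the deposited library scale, 0.908 for low library 2 and 1.00 to 1.04 for the others. The submitters' processing notes list HTSeq 0.5.4p2, TopHat2 2.0.8, DESeq 1.12.1, Bowtie2 2.1.0, SAMtools 0.1.18 and Cufflinks 2.1.1, with no roles. Build, annotation, strand setting and gene filter were not given in the sources used here. The lowest mean in the table was 0.737 CPM.

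Groups came from the sample titles. Log2(CPM + 1) was fitted with limma 3.58.1 in R 4.3.3, without covariates, over all genes. Intervals are 95% intervals of limma. The code was tested on simulated data. Alternatives were a pseudocount of 0.25 CPM, a mean of at least 5 CPM, TMM rescaling, a replicate block, each library left out, and, chosen after seeing the data, voom on recovered reads and CPM of the plain table total. Voom took the place of the planned count model. All members are named. Values per library are given for members at an unadjusted p below 0.05 or with groups that do not overlap. They are also given for the 2 members of highest CPM per subfamily, a choice by read coverage. Some genes were singled out after their values were seen. Values per library are given for DNAJA3, DNAJB5, DNAJC2, DNAJC6, DNAJC13 and DNAJC19 and the partners HYOU1, SIL1 and SEC63 among these. The partners HSPA13 and BAG2, singled out in the same way, are given by log2 differences only. The members, place lists and partner lists were chosen with earlier results of these data known.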

Additional observations from a re-analysis of the deposited data

How the results depend on the processing

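The 7 members at an unadjusted limma p below 0.05 kept their direction under all 12 alternatives. DNAJC10, DNAJB9, DNAJC3 and DNAJB1 stayed below 0.05 with each of the 6 libraries left out. The adjusted count of 0 members ranged from 0 to 7 with a library left out, and was 0 under the other alternatives. The unadjusted count of 7 ranged from 4 to 14 with a library left out and was 4 with the replicate block, where 8.36% of all genes were below 0.05 (12.0% without the block). Deviations from the group mean correlated at 0.12, -0.26 and -0.31 between libraries of the same number, and at -0.36 to 0.37 between the other pairs. With 3 libraries per group these values cannot tell whether the numbers mark paired libraries, and the labels do not say. The median over all members was 0.11 and ranged from 0.0864 to 0.19 with a library left out. Directions of 16 members turned with a library left out, and 19 kept theirs under every alternative run for them. DNAJB3, DNAJB4, DNAJC6 and DNAJC27 were not in the fit of genes with a mean of at least 5 CPM. The ranges were -0.0035 to 0.26 for DNAJA2, -0.0353 to 0.0623 for DNAJA3, -0.0424 to 0.24 for DNAJA4, -0.26 to 0.11 for DNAJB3, -0.13 to 0.37 for DNAJB5, -0.0639 to 0.34 for DNAJC2, -0.25 to 0.32 for DNAJC6, -0.0225 to 0.20 for DNAJC7, -0.17 to 0.19 for DNAJC9, -0.037 to 0.38 for DNAJC13, -0.045 to 0.15 for DNAJC14, -0.0665 to 0.14 for DNAJC15, -0.10 to 0.14 for DNAJC17, -0.15 to 0.12 for DNAJC24, -0.18 to 0.0062 for DNAJC25 and -0.03998 to 0.18 for DNAJC30. With voom DNAJA3, DNAJC17 and DNAJC24 turned to -0.0255, -0.00782 and -0.016, and with CPM of the plain table total to -0.0275, -0.00125 and -0.00703, where the median of all genes was -0.03. The median over the members was then 0.08. TMM rescaling gave the same values, since the deposited scale already holds those factors. The planned count model was not run. DNAJB3, DNAJB4, DNAJC6 and DNAJC27 had as few as 32 to 43 reads in a library, where counting error is largest. The cause of these changes was not tested.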
